A study of Mus musculus with 25 samples.

Results

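The comparison described here is that of RAW 264.7 cells treated with 2.1 mM hypochlorous acid (HOCl) against cells at 0 mM HOCl. Its members were taken by label: 3 arrays titled 2.1 mM and 4 arrays titled 0 mM, 7 of the 25 arrays of a series whose other doses were 1.4, 0.7, 0.35 and 0.14 mM below it and 2.8 and 3.5 mM above it. RAW 264.7 is an established, virus-transformed line of mouse macrophages, so every array reports on 1 line and not on primary cells. Cells near confluency were held for 6 h in serum-containing culture medium with or without the oxidant, and the RNA of each culture was hybridised to 1 Affymetrix Mouse Genome 430 2.0 array. The design text calls the replicates biological; it gives their number as 3, while 4 arrays carry the 0 mM title, and all 4 were used here. Whether the cultures came from separate days is not stated, so the p-values measure the spread between these arrays. Serum, buffer and amino acids of the medium can react with HOCl, and the dose is the dose added.

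HOCl is the oxidant that myeloperoxidase makes from hydrogen peroxide and chloride in activated phagocytes, and it reacts fastest with thiols and thioethers, that is with cysteine, methionine and glutathione. Cells answer thiol oxidants in part through the transcription factor NRF2 (Nfe2l2), which is held down by the cysteine-rich adaptor KEAP1 and drives genes of glutathione synthesis, thioredoxin reduction, NADPH supply and heme breakdown. Damaged proteins engage the heat shock factor, the proteasome and the unfolded protein response of the endoplasmic reticulum. Macrophages add inflammatory programmes driven by NF-kB and interferon signalling, and a dividing line such as RAW 264.7 also carries the transcripts of the cell cycle.

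Levels are log2 signals relative to the median of each array, and base 2 is an inference from the range they cover, since the labels name no base. A difference is the 2.1 mM mean minus the 0 mM mean on that scale, given with its standard error (SE) from limma fitted to all 25 arrays and with a p-value with Benjamini-Hochberg adjustment over 45037 probe sets. Higher or lower at an adjusted p under 0.05 is called, and "rose" and "fell" are used of called genes. Each gene has the value of its brightest probe set. At 2.1 mM 6015 of 45037 probe sets (13.4%) were called, 3271 higher (7.26%) and 2744 lower (6.09%). Of 18193 genes 1332 were called higher (7.32%) and 1492 lower (8.2%), and by 2-fold or more 453 (2.49%) and 541 (2.97%). The split moved with the scaling: 54.4% of called probe sets were higher here, 48.4% after quantile normalization and 61.8% after scaling the arrays to a common spread. Leaving out replicate 1, 2 or 3 of 2.1 mM left 3243, 3120 and 3424 called probe sets, and 616, 707 and 843 genes higher with 955, 786 and 733 lower.

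The 3 arrays at 2.1 mM correlated at 0.995 to 0.997 and had the smallest median SD of the 8 doses, 0.106 on the log2 scale. The 4 arrays at 0 mM were less alike, with a median SD of 0.184. Their replicates 2 and 4 correlated at 0.996 and replicate 1 at 0.953 to 0.962 with the others. On 0 mM replicate 1 the Gapdh control probe sets of the 3' end read 0.36 above those of the 5' end, against -0.072 to -0.0084 on the other 0 mM arrays and -0.091 to -0.080 at 2.1 mM. For beta-actin the same array had the lowest 3' to 5' difference, 0.12, against 0.34 to 0.47 on the other 0 mM arrays and 0.31 to 0.44 at 2.1 mM, so the measures went in opposite directions there. RNA of the Bacillus transcripts dap, lys, phe and thr is added to samples as a labelling control. The 8 control probe sets for their 5' ends read 0.74 to 1.12 on the 0 mM arrays and 1.86 to 2.39 on the 2.1 mM arrays. Probe sets for other regions of these transcripts were not used. Within these 7 arrays the control level and the dose cannot be told apart. Over the series, replicate 3 of 0.35 mM and replicate 3 of 0.7 mM have the high level and their dose partners the low one, and a fit with the level as a term rests on those arrays. It called 39 probe sets, 16 genes higher (0.0879%) and 1 lower (0.0055%), and is given below as the spike-level fit.

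Macrophage markers were bright in both groups. Csf1r, the receptor for macrophage colony-stimulating factor, read 7.61, 7.20, 7.80 and 7.14 on 0 mM replicates 1 to 4 and 7.55, 7.50 and 7.45 on 2.1 mM replicates 1 to 3. The lysozyme gene Lyz2 lay between 7.93 and 8.28 on all 7 arrays, and Cd68, a lysosomal macrophage glycoprotein, between 6.58 and 7.01. Of 17 macrophage markers 1 was called higher (5.88%) and 2 lower (11.8%), where the shares of all genes were 7.32% and 8.2%. The gene called higher was Cd53 (0.57, adjusted p = 0.0387, up to 0.123 with 1 array left out), whose most variable probe set pointed the other way. Those called lower were Adgre1, which encodes F4/80 (-1.07, adjusted p = 0.0232, up to 0.0961 with 1 array left out), and the high-affinity IgG receptor Fcgr1 (-1.38, adjusted p = 0.0313, up to 0.11 with 1 array left out). These calls were lost without single arrays of either group, and the counts were 0 higher and 3 lower after quantile normalization and 4 higher and 1 lower after scaling to a common spread. Markers of fibroblasts and epithelium had no call among 13 measured genes, and their mean level was -0.41 to -0.25 on all 7 arrays.

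**Figure D1:**
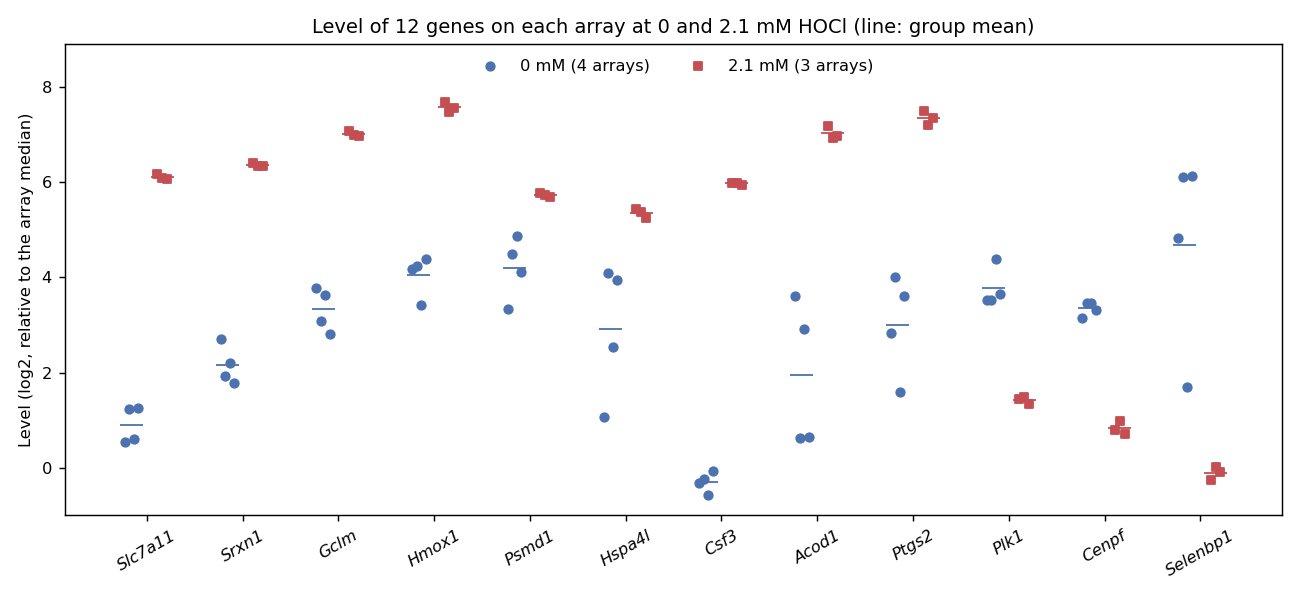
Level (log2, relative to the array median) of 12 genes on each of the 4 arrays at 0 mM (blue circles) and the 3 arrays at 2.1 mM HOCl (red squares), with the group means as lines. No pair of groups overlaps; the red points of each gene lie close together, while the blue points of Selenbp1 run from 1.70 to 6.12.

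Genes that bring in cystine and build or recycle glutathione rose wherever they were called. Of 12 measured members 6 rose and none fell, with a median difference of 0.75 against 0.0049 over all genes. Slc7a11, the light chain of the cystine-glutamate exchanger xCT, read 0.56, 1.24, 0.60 and 1.27 on 0 mM replicates 1 to 4 and 6.16, 6.09 and 6.07 on 2.1 mM replicates 1 to 3. All 2.1 mM arrays lay far above all 0 mM arrays, and the gene rose 36.5-fold (log2 5.19, SE 0.49, adjusted p = 8.17e-06). Its partner in the exchanger, the heavy chain Slc3a2, read 4.68, 5.69, 4.88 and 5.59 at 0 mM and 5.94, 5.88 and 5.91 at 2.1 mM. The groups did not overlap but lay close, and the call was weak (0.71, adjusted p = 0.0354, up to 0.108 with 1 array left out).

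Gclm, the modifier subunit of glutamate-cysteine ligase, the enzyme that sets the rate of glutathione synthesis, read 3.79, 3.08, 3.64 and 2.81 at 0 mM and 7.07, 6.98 and 6.96 at 2.1 mM, a rise of 12.8-fold (log2 3.67, SE 0.35, adjusted p = 8.27e-06). The catalytic subunit Gclc read 3.88, 3.53, 3.36 and 3.43 and 4.47, 4.26 and 4.23; its groups did not overlap, but the difference did not pass the test (0.77, adjusted p = 0.105). Glutathione synthetase, Gss, which adds the glycine, rose by 0.72 (SE 0.10, adjusted p = 0.000344) with 0 mM arrays between 2.07 and 2.26 and 2.1 mM arrays between 2.82 and 2.97. Glutathione reductase, Gsr, which returns the oxidised form to glutathione, rose by 1.36 (adjusted p = 0.00392). Chac1, which degrades glutathione, also rose (1.59, adjusted p = 0.0303, up to 0.101 with 1 array left out). In the spike-level fit 3 of these genes were called, Slc7a11 (4.28, adjusted p = 0.0223), Gclm (4.29, adjusted p = 0.00146) and Gsr (2.10, adjusted p = 0.0317).

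In the thioredoxin system the largest difference was that of Srxn1, sulfiredoxin, which repairs peroxiredoxins whose cysteine has been overoxidised. It read 2.70, 1.94, 2.20 and 1.78 on the 0 mM arrays and 6.40, 6.34 and 6.34 on the 2.1 mM arrays. Its rise was 18.5-fold (log2 4.21, SE 0.39, adjusted p = 8.17e-06), all 4 of its probe sets were called higher, and it held in the spike-level fit (4.56, adjusted p = 0.00414). Thioredoxin reductase, Txnrd1, rose by 1.37 (adjusted p = 0.000434). Thioredoxin itself, Txn1, read 2.37, 7.01, 7.36 and 6.88 at 0 mM and 7.62, 7.50 and 7.51 at 2.1 mM. Replicate 1 of 0 mM was far below the other arrays for this gene, and the difference was not called (1.64, adjusted p = 0.132). Of 13 measured members 4 rose and 2 fell; without any of the 2.1 mM arrays 2 rose, and 1 or 2 fell. The genes that fell were Msrb1, a selenoprotein that reduces oxidised methionine (-0.60, adjusted p = 0.00717), and nucleoredoxin, Nxn (-0.50, adjusted p = 0.0215, up to 0.142 with 1 array left out).

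Heme breakdown and iron handling held 8 rises among 15 measured genes and no fall (median 1.16). Heme oxygenase 1, Hmox1, which opens the heme ring and frees its iron, had the lowest p of all genes. It read 4.18, 4.24, 3.42 and 4.38 at 0 mM and 7.68, 7.47 and 7.55 at 2.1 mM (log2 3.51, SE 0.20, adjusted p = 7.76e-09), and the spike-level fit gave 3.85, adjusted p = 2.98e-06. In that fit 2 members of the list were called, Hmox1 and Slc40a1, and the list median was 0.78. Slc40a1, ferroportin, the iron exporter of the cell, read 0.94, 1.53, 0.50 and 1.16 and 3.88, 3.81 and 3.64 (2.74, SE 0.36, adjusted p = 0.000183). The phagosomal metal transporter Slc11a1 rose by 2.47, the transferrin receptor Tfrc, which brings iron in, by 2.38, the heme exporter Flvcr1 by 1.59 and biliverdin reductase Blvrb by 1.16 (adjusted p = 0.00018, 0.00571, 0.00398 and 0.00807). Genes of iron import and of iron export thus rose on the same arrays. The ferritin heavy chain, Fth1, among the brightest genes on the array at 8.10 to 8.66, was not called (0.23, adjusted p = 0.122).

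The promoters of Srxn1, Gclm, Slc7a11 and Me1, cytosolic malic enzyme, are shown because these genes hold a match and were called in both fits. In the first fit the calls held whichever array was left out. The sequences are taken from RefSeq (GRCm38.p6, 250 bases before to 50 bases after the annotated start). Capitals mark each match, on either strand, to the core of the antioxidant response element bound by NRF2 with small MAF proteins, searched as TGACNNNGC, in Srxn1, Gclm and Me1, and in Slc7a11 each match to TGATGCAA, a letter pattern of the element bound by ATF4 with C/EBP proteins.
Srxn1, chr2:152105274-152105573, plus strand: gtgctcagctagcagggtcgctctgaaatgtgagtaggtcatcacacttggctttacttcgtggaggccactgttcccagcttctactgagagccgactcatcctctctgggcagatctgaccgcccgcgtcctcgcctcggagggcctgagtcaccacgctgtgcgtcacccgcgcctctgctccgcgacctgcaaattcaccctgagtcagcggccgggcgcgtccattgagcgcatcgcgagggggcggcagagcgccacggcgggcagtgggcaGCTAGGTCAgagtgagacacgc
Gclm, chr3:122245307-122245606, plus strand: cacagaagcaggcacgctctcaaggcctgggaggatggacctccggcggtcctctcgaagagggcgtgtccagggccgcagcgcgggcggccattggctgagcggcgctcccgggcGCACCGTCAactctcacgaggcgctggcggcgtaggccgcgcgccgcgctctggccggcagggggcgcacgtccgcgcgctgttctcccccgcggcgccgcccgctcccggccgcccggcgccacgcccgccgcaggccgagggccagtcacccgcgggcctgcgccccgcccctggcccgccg
Slc7a11, chr3:50443564-50443863, minus strand: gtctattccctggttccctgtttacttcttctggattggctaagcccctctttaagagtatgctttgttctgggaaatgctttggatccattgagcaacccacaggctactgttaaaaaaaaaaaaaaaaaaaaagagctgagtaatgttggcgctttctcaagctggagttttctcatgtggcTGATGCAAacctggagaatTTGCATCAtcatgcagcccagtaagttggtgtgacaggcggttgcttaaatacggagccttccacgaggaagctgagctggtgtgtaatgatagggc
Me1, chr9:86695865-86696164, minus strand: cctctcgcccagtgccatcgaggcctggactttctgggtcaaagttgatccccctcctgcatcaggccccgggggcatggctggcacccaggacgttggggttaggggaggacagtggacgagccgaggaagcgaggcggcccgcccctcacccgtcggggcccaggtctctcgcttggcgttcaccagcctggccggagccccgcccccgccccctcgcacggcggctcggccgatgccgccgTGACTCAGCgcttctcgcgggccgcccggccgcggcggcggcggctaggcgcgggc
The Srxn1 match starts 28 bases after the annotated start and the Gclm match 134 bases before it. Slc7a11 has no match to TGACNNNGC and 2 matches to TGATGCAA, on opposite strands, 66 and 47 bases before the start. In Me1 the match starts 6 bases before the start, and its first 7 letters, TGACTCA, are also those of the AP-1 site, so the patterns overlap there. TGACNNNGC is common: 16.2% of 14452 measured genes with a promoter held it, against 17.9% of 357 genes that rose 2-fold or more and 17.1% of 451 that fell 2-fold or more. TGATGCAA is rarer, at 0.803% of measured genes, and was found in 3 of 9 genes of the glutathione list with a promoter, Slc7a11, Chac1 and Slc1a4. It was also in 4 of 10 promoters of tRNA synthetases and 5 of 21 of the ATF4 list, Chac1 again among them, lists in which 3 of 17 and 3 of 23 measured genes rose. Hmox1, Slc40a1, Gclc and Gsr are named without a sequence. Of 12 genes with a promoter called higher in the spike-level fit, 3 held TGACNNNGC and 2 held TGATGCAA. A match describes letters in the window.

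Among suppliers of NADPH, the electron source of both reductase systems, 3 of 10 genes rose and 2 fell. Me1, which makes NADPH from malate, read 1.87, 1.38, 2.02 and 1.25 at 0 mM and 3.79, 3.72 and 3.64 at 2.1 mM (2.08, SE 0.22, adjusted p = 2.4e-05). Pgd rose by 1.16 and transaldolase Taldo1 by 0.55 (adjusted p = 0.0031 and 0.00192). The 2 that fell are also pentose phosphate enzymes: Pgls, which acts between the 2 dehydrogenases (-1.02, adjusted p = 0.00198), and Rpia (-0.78, adjusted p = 0.0373, up to 0.113 with 1 array left out). Of 18 quinone and xenobiotic genes 6 rose, among them the quinone reductase Nqo1 (1.89, adjusted p = 0.00329), the aldo-keto reductase Akr1b8 (1.88, adjusted p = 0.000392), carbonyl reductase Cbr3 (1.86, adjusted p = 0.00124) and Ptgr1 (1.27, adjusted p = 0.000239), while epoxide hydrolase Ephx1 fell (-1.89, adjusted p = 0.0263, up to 0.0819 with 1 array left out).

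Enzymes that act on peroxide and superoxide directly, listed together with NADPH oxidase genes, did not rise as a group. Of 12 measured genes of this joint list 2 rose and 4 fell, with a median of -0.16. Gpx1, cytosolic glutathione peroxidase, read 6.70, 6.56, 6.79 and 6.58 at 0 mM and 5.70, 5.63 and 5.55 at 2.1 mM, so that every treated array lay below every control (fell by 1.03, SE 0.15, adjusted p = 0.000334). Gpx4, which reduces lipid hydroperoxides in membranes, fell by 0.94, SE 0.17, adjusted p = 0.00141 with both of its probe sets called lower. Ncf1, a subunit of the phagocyte NADPH oxidase, fell by 0.95 (adjusted p = 0.00649), and Gpx7 was the fourth (-0.46, adjusted p = 0.035, up to 0.137 with 1 array left out). Catalase, Cat, rose by 1.54 and the mitochondrial superoxide dismutase Sod2 by 0.73 (adjusted p = 0.000123 and 0.0108). None of the 4 falls was called in the spike-level fit (Gpx1 -0.96, adjusted p = 0.133).

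NRF2 itself, Nfe2l2, read 2.16, 4.97, 4.94 and 4.75 at 0 mM and 5.16, 5.07 and 5.00 at 2.1 mM. Replicate 1 of 0 mM lay far below, the other controls lay just under the treated arrays, and the gene was not called (0.87, adjusted p = 0.186). Its inhibitor Keap1 and its partner Mafg showed the same low replicate and were not called either (1.20, adjusted p = 0.108, and 1.58, adjusted p = 0.0764). The NRF2-linked genes that rose were the autophagy receptor Sqstm1, with 5.32, 6.26, 5.05 and 6.34 at 0 mM and 7.89, 7.84 and 7.87 at 2.1 mM (2.12, SE 0.30, adjusted p = 0.000334), and the ubiquitin ligase scaffold Cul3 (0.84, adjusted p = 0.0177, up to 0.0817 with 1 array left out), whose most variable probe set pointed the other way.

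**Figure D2:**
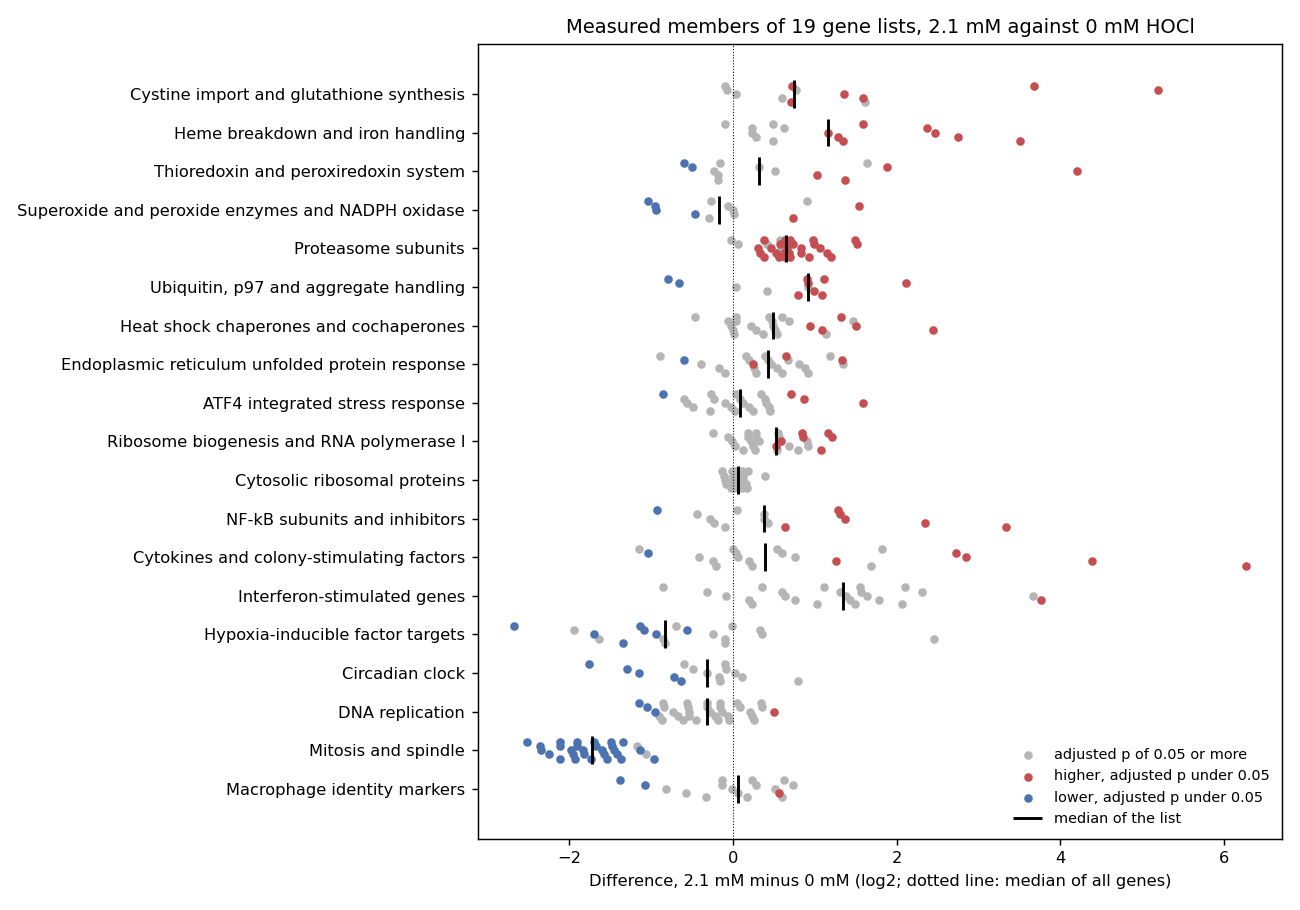
Difference between 2.1 and 0 mM (log2, horizontal axis) of every measured member of 19 gene lists; red points were called higher, blue called lower, grey not called, and black bars are list medians (dotted line, median of all genes). All proteasome members but 1 lie right of zero and all mitosis members at -0.97 or below, whereas the interferon list lies mostly to the right with 1 call.

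The proteasome moved as a block. Of 32 measured subunits and assembly genes 27 rose and none fell, and 31 had a positive difference (median 0.65). The changes were modest, from 0.31 to 1.52 among the called genes, and covered the 20S core and the 19S cap alike. Psmd1, the largest subunit of the cap, read 3.34, 4.50, 4.88 and 4.12 on 0 mM replicates 1 to 4 and 5.78, 5.72 and 5.70 on the 2.1 mM arrays (1.52, SE 0.24, adjusted p = 0.000654). Psmd11, a cap subunit with tight replicates, read 5.94, 6.01, 6.00 and 5.99 and 6.99, 6.97 and 6.95 (0.99, SE 0.12, adjusted p = 7.91e-05). Psma7, a core alpha subunit, rose by 1.07 (adjusted p = 9.08e-05), while Psmd8 and Psmd13 stood at -0.024 and 0.06 (adjusted p = 0.952 and 0.815). The list mean was 5.28, 5.24, 5.51 and 5.27 on the 0 mM arrays and 6.09, 6.01 and 5.96 on the 2.1 mM arrays. Leaving out 1 array at a time left 21 to 29 members called higher. In the spike-level fit no member was called and the list median was 0.46; Psmd5, a chaperone of cap assembly outside the list, was called there (1.81, adjusted p = 0.0308).

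Genes that hand ubiquitinated proteins to the proteasome rose in part: 7 of 12, with 2 falls. The segregase p97, Vcp, read 5.74, 5.55, 6.06 and 5.36 at 0 mM and 6.69, 6.57 and 6.54 at 2.1 mM (0.92, SE 0.16, adjusted p = 0.001), and its cofactors Ufd1 and Nploc4 rose by 0.99 and 0.79 (adjusted p = 0.000775 and 0.0183; for Nploc4 adjusted p up to 0.0731 without 2.1 mM replicate 1). The SUMO-targeted ligase Rnf4 rose by 0.91 (adjusted p = 0.000775). The chaperone-linked ligase Stub1 fell (-0.80, adjusted p = 0.018, up to 0.0679 with 1 array left out). Of the 2 falls 1 remained without 2.1 mM replicate 2 and none without replicate 3. For Ubqln1, called lower by its brightest probe set (-0.66, adjusted p = 0.0124, up to 0.0589 with 1 array left out), and for the deubiquitinase Usp14, called higher (1.09, adjusted p = 0.00256), other probe sets of the same gene were called in the opposite direction.

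Of 24 heat shock chaperones 5 rose and none fell, and without 0 mM replicate 3 11 did. Hspa4l, a nucleotide exchange factor of the HSP110 family, read 1.07, 4.10, 2.54 and 3.94 at 0 mM and 5.43, 5.37 and 5.26 at 2.1 mM (2.44, SE 0.61, adjusted p = 0.0119). Hsp90aa1, the inducible cytosolic HSP90, rose from 6.21, 5.99, 6.84 and 5.97 to 7.86, 7.74 and 7.67, which is 2.83-fold (SE 0.19 on the log2 scale, adjusted p = 0.000115). Hsph1, the HSP40 Dnaja1 and the HSP90 cochaperone Chordc1 rose by 1.32, 1.09 and 0.95 (adjusted p = 0.00383, 0.00631 and 0.000767). The most stress-inducible members did not pass: the HSP70 gene Hspa1b read 3.83, 3.12, 1.73 and 3.00 and 4.40, 4.50 and 4.28 (1.47, adjusted p = 0.1), and Dnajb1 differed by -0.02 (adjusted p = 0.97). The heat shock element, a run of alternating GAA units searched on both strands, was held by 5 of 21 promoters of this list, those of Hsph1, Hspd1, Hspe1, Dnajb6 and Chordc1, against 0.609% of measured genes.

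The unfolded protein response list had 3 rises and 1 fall among 23 genes, with 11 members whose 2.1 mM arrays all lay above the 0 mM arrays, where 15.8% of all genes did so. Dnajc3, a cochaperone of the endoplasmic reticulum, rose by 1.34 and the disulfide isomerase Pdia3 by 0.65 (adjusted p = 0.0114, with probe sets that disagreed, and 0.034; for Pdia3 adjusted p up to 0.118 without 2.1 mM replicate 1). The lumenal chaperone Hspa5 and the transcription factor Xbp1 were not called (0.46, adjusted p = 0.138, and 0.16, adjusted p = 0.724), and the sensor kinase Eif2ak3 fell (-0.60, adjusted p = 0.029, up to 0.0949 with 1 array left out). When single arrays were left out 0 to 3 genes rose, with none left without 2.1 mM replicate 1. In the ATF4 list, 3 of 23 genes rose and 1 fell; without any 2.1 mM array 1 rose. Its best known members Ddit3, Trib3, Asns and Atf3 differed by 0.13, 0.34, 0.45 and -0.56 (adjusted p = 0.861, 0.722, 0.422 and 0.503). On the control arrays Atf3 read 2.98, 5.25, 2.70 and 5.07, with replicates 2 and 4 high and 1 and 3 low, and the 2.1 mM arrays lay between at 3.56, 3.42 and 3.34. The serine synthesis enzyme Phgdh fell with all 4 probe sets (-0.85, adjusted p = 0.00746) and valyl-tRNA synthetase, Vars, fell from 4.71, 5.51, 4.97 and 5.38 to 3.53, 3.56 and 3.48 (fell by 1.62, SE 0.28, adjusted p = 0.00119), whereas 3 of 17 tRNA synthetases rose, none of them without 2.1 mM replicate 1.

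Genes of ribosome assembly rose in part. Of 27 genes of ribosome biogenesis and RNA polymerase I 7 rose and none fell (median 0.53), and 12 rose when 0 mM replicate 3 was left out. Rrn3, an initiation factor of RNA polymerase I, read 0.62, 2.07, 2.32 and 1.84 at 0 mM and 3.00, 2.89 and 2.87 at 2.1 mM (1.21, SE 0.27, adjusted p = 0.00569). Nop16, Wdr43, the helicase Ddx21 and Utp4 rose by 1.17, 1.07, 0.85 and 0.85 (adjusted p = 0.00705, 0.00577, 0.00106 and 0.00291). For Ddx21 the most variable probe set pointed the other way. None of 27 cytosolic ribosomal protein genes was called, with differences from -0.13 to 0.39, while 1 was called without 0 mM replicate 3. Rps19, of the small subunit, differed by 0.00082. The list median was 0.064, and it was -0.0091 after quantile normalization and 0.28 after scaling to a common spread.

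Mitotic genes had the largest share of members called lower among the 50 lists. Of 30 measured members 28 fell, none rose and all differences were negative, from -2.52 to -0.97 with a median of -1.71. The share called lower among all genes was 8.2%. Fewer cells in mitosis and less RNA per cell cannot be told apart in bulk RNA. Cenpf, a kinetochore protein of late cell cycle, read 3.15, 3.47, 3.47 and 3.32 on the 0 mM arrays and 0.80, 1.00 and 0.71 on the 2.1 mM arrays, with a wide gap between the groups (fell by 2.52, SE 0.47, adjusted p = 0.00183). The mitotic kinase Plk1 read 3.54, 3.54, 4.40 and 3.66 and 1.45, 1.48 and 1.34 (fell by 2.35, SE 0.48, adjusted p = 0.00315). Ube2c, the ubiquitin-conjugating enzyme of the anaphase-promoting complex, read 5.39, 6.02, 6.24 and 6.10 and 3.75, 3.75 and 3.57 (fell by 2.25, SE 0.31, adjusted p = 0.000272). Aurora kinase B, Aurkb, had even controls, 3.88, 4.00, 3.93 and 3.90, against 1.85, 1.90 and 1.70 (fell by 2.11, SE 0.43, adjusted p = 0.00328).

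The 2 members that were not called were Ect2 (1.18, 3.32, 3.29 and 3.04 at 0 mM) and Ccnb2 (0.88, 5.33, 5.10 and 5.45), and for both the 0 mM replicate 1 was far below the other controls and below the 2.1 mM arrays. Other spindle genes outside the list were among the 15 largest falls of all genes. These were Psrc1, a microtubule regulator (fell by 3.08, SE 0.46, adjusted p = 0.000452), Aspm, a spindle pole protein (fell by 2.71, SE 0.42, adjusted p = 0.000527), and Arhgef39 (fell by 2.39, SE 0.40, adjusted p = 0.00095). The list mean was 3.74, 4.16, 4.40 and 4.09 on the controls and 2.51, 2.40 and 2.21 at 2.1 mM. Leaving out 1 array at a time left 20 to 30 members called lower. In the spike-level fit none was called, and the median was -1.45.

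Many promoters of mitotic genes carry the cell cycle homology region, TTTGAA, where the DREAM and B-MYB complexes bind. It was searched on both strands and found in 21 of 26 promoters of the list (80.8%), against 15.7% of 14452 measured genes, 23.1% of the 451 genes that fell 2-fold or more and 12.9% of the 357 that rose 2-fold or more. The stretches of 50 bases either side of the start are shown for 5 members and Aspm because each of these genes fell whichever array was left out and holds the match (RefSeq, GRCm38.p6, capitals mark the match).
Cenpf, chr1:189688037-189688136, minus strand: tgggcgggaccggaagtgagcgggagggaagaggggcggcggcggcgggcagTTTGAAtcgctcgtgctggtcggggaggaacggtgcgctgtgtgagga
Plk1, chr7:122159385-122159484, plus strand: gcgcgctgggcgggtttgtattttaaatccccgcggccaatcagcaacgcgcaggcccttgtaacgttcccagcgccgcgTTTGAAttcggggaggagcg
Prc1, chr7:80294401-80294500, plus strand: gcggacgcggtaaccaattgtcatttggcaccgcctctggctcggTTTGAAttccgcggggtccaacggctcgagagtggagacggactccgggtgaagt
Ube2c, chr2:164769879-164769978, plus strand: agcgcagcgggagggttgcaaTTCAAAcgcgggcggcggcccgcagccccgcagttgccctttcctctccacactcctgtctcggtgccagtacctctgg
Cenpa, chr5:30666836-30666935, plus strand: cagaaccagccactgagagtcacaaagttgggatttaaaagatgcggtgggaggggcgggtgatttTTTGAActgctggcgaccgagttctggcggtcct
Aspm, chr1:139454723-139454822, plus strand: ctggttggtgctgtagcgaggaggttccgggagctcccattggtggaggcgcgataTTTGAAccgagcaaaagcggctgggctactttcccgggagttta
In all 6 the match starts within 30 bases of the annotated start, from 29 bases before it in Ube2c to 30 bases after it in Plk1, and in Ube2c it lies on the opposite strand. Prc1, which bundles the central spindle, fell by 2.34, SE 0.37, adjusted p = 0.000622, and the centromeric histone Cenpa fell by 2.11, SE 0.35, adjusted p = 0.000878.

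Of 33 measured DNA replication genes 3 fell (9.09%) and 1 rose (3.03%), where 8.2% of all genes fell and 7.32% rose, and the list median was -0.31. Mcm7, a helicase subunit, fell (-1.15, adjusted p = 0.0156, up to 0.0589 with 1 array left out), as did DNA ligase Lig1 (-0.95, adjusted p = 0.0249, up to 0.086 with 1 array left out) and the polymerase subunit Pole (-1.04, adjusted p = 0.0438, up to 0.159 with 1 array left out), while the sliding clamp Pcna rose (0.50, adjusted p = 0.0323, up to 0.113 with 1 array left out). The Pcna rise was lost without any of 6 arrays, and 1 of the falls or none remained without 0 mM replicate 3 or any 2.1 mM array. Mcm5 read 6.08, 5.03, 6.00 and 5.01 at 0 mM, with replicates 1 and 3 high, and 5.42, 5.40 and 5.29 at 2.1 mM, between the 2 pairs of controls. Among G1 genes, Ccnd3, cyclin D3, read 4.24, 4.28, 4.18 and 4.29 at 0 mM and 2.49, 2.48 and 2.40 at 2.1 mM (fell by 1.79, SE 0.24, adjusted p = 0.000226). The differentiation inhibitor Id3 fell by 2.36, SE 0.37, adjusted p = 0.000654 and the Myc antagonist Mxi1 by 0.93, SE 0.25, adjusted p = 0.0171, up to 0.0668 with 1 array left out; no G1 gene rose, and 6 fell without 0 mM replicate 3. Myc read -0.66, -0.41, -0.74 and -0.48 and 0.34, 0.73 and 0.47 and was not called (1.09, adjusted p = 0.0724).

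Death and checkpoint lists held 1 or 2 calls each, where 7.32% of all genes were called higher and 8.2% lower. In the Bcl2 and apoptosis list 2 of 20 fell and none rose, and in the Gadd45 and growth arrest list 1 of 11 rose and none fell. In the p53 list 1 of 20 genes was called, Zmat3, which fell by 1.62, SE 0.38, adjusted p = 0.00789, and 4 were called lower without 0 mM replicate 3. Cdkn1a, the p21 inhibitor of cyclin-dependent kinases, read 6.39, 7.30, 6.36 and 7.18 and 6.67, 6.59 and 6.52 (-0.21, adjusted p = 0.641), and Mdm2 was not called by its brightest probe set (0.57, adjusted p = 0.219). Bcl2, an inhibitor of apoptosis, fell (-1.07, adjusted p = 0.0116, up to 0.0503 with 1 array left out), and so did survivin, Birc5, a mitotic gene too (-1.54, adjusted p = 0.015, up to 0.0614 with 1 array left out). The growth arrest gene Gadd45a rose (1.33, adjusted p = 0.043, up to 0.146 with 1 array left out), a call that was lost whichever array was left out.

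**Figure D3:**
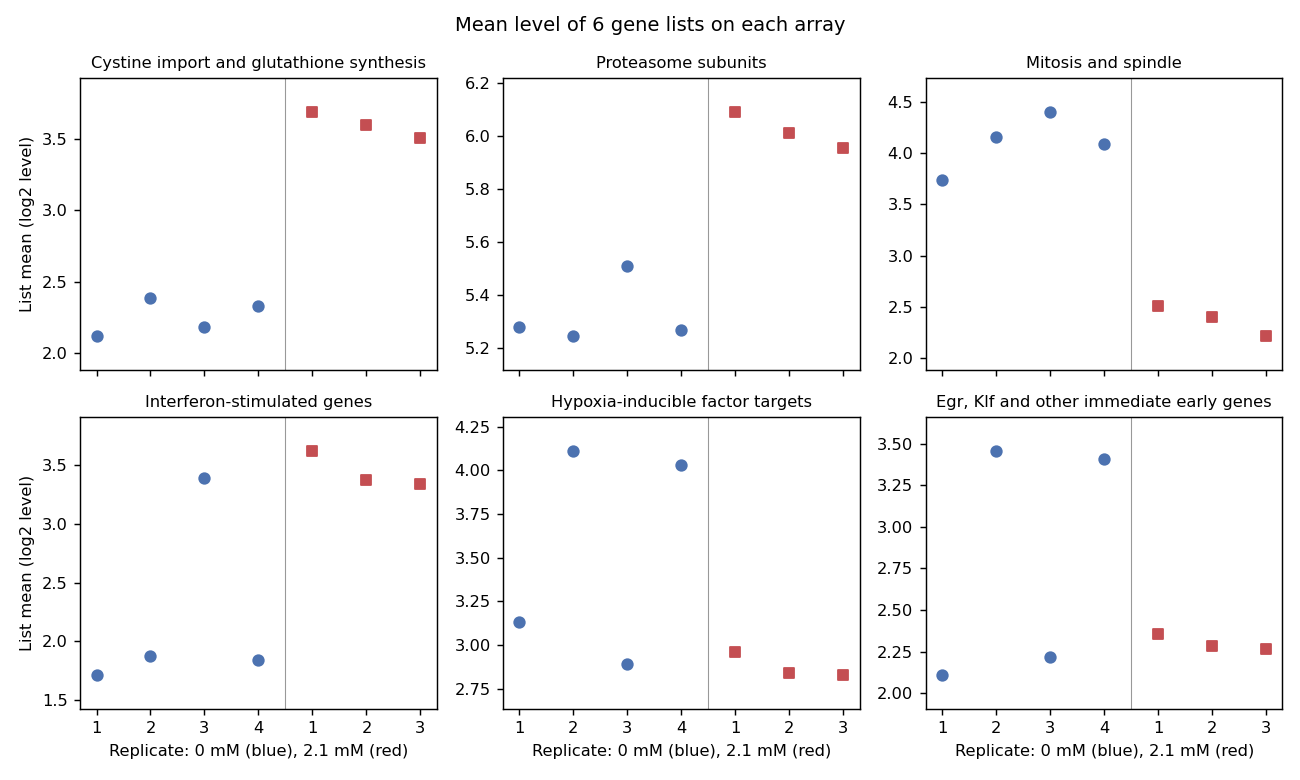
Mean log2 level of 6 gene lists on 0 mM replicates 1 to 4 (blue) and 2.1 mM replicates 1 to 3 (red); the vertical axes differ and do not start at 0. The glutathione, proteasome and mitosis means separate the groups, the interferon mean of 0 mM replicate 3 lies at the treated level, and the hypoxia and immediate early means of 0 mM replicates 1 and 3 lie near or below the treated arrays.

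The control arrays were not uniform for several programmes, and results on these lists rest on which controls are used. Genes induced by the hypoxia-inducible factor had a list mean of 3.13, 4.11, 2.89 and 4.03 at 0 mM and 2.96, 2.84 and 2.83 at 2.1 mM. The treated arrays lay well below replicates 2 and 4 and near replicates 1 and 3. Of 19 members 7 fell and none rose, and 4 fell when 0 mM replicate 4 or 2.1 mM replicate 2 or 3 was left out. Egln1, the oxygen-sensing prolyl hydroxylase, read 3.62, 3.77, 2.73 and 3.61 and 1.84, 1.64 and 1.74 (fell by 1.69, SE 0.30, adjusted p = 0.0014). Ankrd37 read 3.78, 4.19, 2.11 and 4.31 and 0.98, 0.82 and 0.99 (fell by 2.67, SE 0.62, adjusted p = 0.00788). Carbonic anhydrase Car9 fell by 1.13, SE 0.27, adjusted p = 0.00975, and neuronal enolase Eno2, outside the list, by 2.88, SE 0.72, adjusted p = 0.012. In glycolysis the phosphofructokinase gene Pfkl fell (-1.22, adjusted p = 0.00968), with Aldoc (-1.56, adjusted p = 0.0473, up to 0.128 with 1 array left out) and Tpi1 (-0.27, adjusted p = 0.049, up to 0.15 with 1 array left out) called weakly.

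Of 15 clock genes 5 fell (33.3%) and none rose, where 8.2% of all genes fell. The list mean was 1.69, 2.12, 1.43 and 2.04 on 0 mM replicates 1 to 4 and 1.46, 1.38 and 1.32 on the 2.1 mM arrays. Replicate 3 of 0 mM thus lay at the treated level, and replicates 2 and 4 lay highest. No clock gene of the list was called in the spike-level fit. Bhlhe40, a repressor of the clock and also a hypoxia target, read 3.41, 3.37, 2.32 and 3.29 and 1.58, 1.33 and 1.13 (fell by 1.75, SE 0.30, adjusted p = 0.00113). Dbp fell by 1.29, SE 0.31, adjusted p = 0.0087, and Nfil3, Bhlhe41 and Nr1d1 fell by 1.14, 0.72 and 0.63 (adjusted p = 0.011, 0.016 and 0.0319). Without 2.1 mM replicate 2 or 3, 3 remained called.

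Immediate early genes showed the same pairs of controls. The list mean was 2.11, 3.45, 2.22 and 3.41 at 0 mM and 2.36, 2.28 and 2.27 at 2.1 mM, so the treated arrays lay between 0 mM replicates 1 and 3 and 0 mM replicates 2 and 4. Egr1 read 3.53, 6.60, 4.22 and 6.38 and 3.27, 3.30 and 3.12 and was not called (-1.96, adjusted p = 0.0702). Fos, an AP-1 subunit, was an exception with even controls, 4.06, 4.32, 3.84 and 4.22, and 2.40, 2.35 and 1.96 at 2.1 mM (-1.87, adjusted p = 0.026, up to 0.0979 with 1 array left out). Fosl1, another AP-1 subunit, read 2.33, 3.25, 2.19 and 3.07 and 4.49, 4.35 and 4.51 and rose (1.74, adjusted p = 0.00469). Jun did not differ by the test (-0.37, adjusted p = 0.475), Klf2 fell (-2.04, adjusted p = 0.00703), and Ier3 rose (1.77, adjusted p = 0.0133). Of the MAP kinase phosphatases, Dusp2 rose from very even controls, 1.44, 1.48, 1.46 and 1.48, to 3.15, 3.04 and 2.83 (1.54, SE 0.28, adjusted p = 0.0017), and Dusp1 was not called (0.72, adjusted p = 0.467). Etv5, a target of ERK signalling, fell by 1.80, SE 0.21, adjusted p = 5.32e-05.

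Genes of inflammation had some of the largest differences. Csf3, granulocyte colony-stimulating factor, read -0.31, -0.23, -0.57 and -0.058 on the 0 mM arrays and 5.98, 5.99 and 5.95 on the 2.1 mM arrays, a rise (log2 6.26, SE 1.51, adjusted p = 0.00932). The controls were dim, around the mean of the fibroblast and epithelial markers, and were not separated from background, so no fold is given. The 7 arrays separated cleanly, and the SE is that of all 8 doses, among which 1.4 mM had an SD of 3.73 for this gene. Acod1, which makes itaconate, read 3.61, 0.64, 2.91 and 0.65, with control replicates 1 and 3 higher than 2 and 4, and 7.18, 6.93 and 6.96 at 2.1 mM (5.07, SE 1.29, adjusted p = 0.0128). Ptgs2, cyclooxygenase 2, read 2.84, 4.01, 1.59 and 3.61 and 7.50, 7.20 and 7.34 (4.34, SE 0.76, adjusted p = 0.00124).

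The interleukin 1 receptor antagonist Il1rn rose 20.9-fold (log2 4.38, SE 1.01, adjusted p = 0.00725), and the neutrophil chemokine Cxcl3 rose from -2.07 to -1.64 at 0 mM to 1.93 to 2.36 at 2.1 mM (log2 3.87, SE 0.87, adjusted p = 0.0064). Other cytokines were called less firmly: Tnf (2.85, adjusted p = 0.0161, up to 0.0572 with 1 array left out), Il6 (2.72, adjusted p = 0.0207, up to 0.0758 with 1 array left out), the chemokines Cxcl2 (3.76, adjusted p = 0.0244, up to 0.0766 with 1 array left out), Ccl2 (3.75, adjusted p = 0.0369, up to 0.105 with 1 array left out) and Ccl3 (1.69, adjusted p = 0.0153, up to 0.0557 with 1 array left out). Il1b read -0.0054, -0.075, 0.19 and -0.14 and 1.63, 1.81 and 1.61, separate but not called (1.69, adjusted p = 0.0681), and the nitric oxide synthase Nos2 was not called (0.75, adjusted p = 0.21). Of 20 cytokines 5 rose and 1 fell, Il18 (-1.03, adjusted p = 0.0409, up to 0.14 with 1 array left out), and without any one 2.1 mM array 2 rose. In the leukotriene branch the lipoxygenase Alox5 fell by 1.27, SE 0.27, adjusted p = 0.00445 and the synthase Ltc4s by 0.86, SE 0.21, adjusted p = 0.0097, up to 0.0591 with 1 array left out, beside the rise of Ptgs2.

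NF-kB genes rose in 6 of 15 cases and fell in 1, and without 2.1 mM replicate 1, 2 or 3 the rises were 1, 2 and 3. Rel, the c-Rel subunit, had tight controls, 1.15, 1.04, 0.94 and 1.08, and read 3.52, 3.42 and 3.26 at 2.1 mM (2.35, SE 0.55, adjusted p = 0.00825). Nfkbiz, an atypical inhibitor that acts in the nucleus, rose by 3.33 (adjusted p = 0.0141; adjusted p up to 0.0541 without 2.1 mM replicate 1). The feedback inhibitor Nfkbia rose by 0.63 (adjusted p = 0.0219; adjusted p up to 0.0779 without 2.1 mM replicate 2) while Relb fell (-0.92, adjusted p = 0.018, up to 0.0823 with 1 array left out). Ly96, the MD-2 partner of Toll-like receptor 4, rose by 1.44 (adjusted p = 0.00423). No cytokine, chemokine, mediator or NF-kB gene of these lists was called in the spike-level fit. There Csf3 stood at 2.73 (adjusted p = 0.614) and Ptgs2 at 2.48 (adjusted p = 0.353). The cytokine list mean was 2.52, 2.32 and 2.37 on 0.35 mM replicates 1 to 3. It was 0.66, 0.80 and 2.38 on 0.7 mM replicates 1 to 3, so replicate 3 stood apart at 0.7 mM only.

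Interferon-stimulated genes had the highest median of the 50 lists, 1.35, with 21 of 24 positive and 1 called. In the spike-level fit the median was -0.15 and none was called, so that neither the direction nor the rank held there. That fit rests on replicate 3 of 0.35 mM and of 0.7 mM. The list mean was 4.75, 4.47 and 4.78 on 0.35 mM replicates 1 to 3. On 0.7 mM replicates 1 to 3 it was 2.55, 1.52 and 4.69, so replicate 3 stood apart at 0.7 mM only. Whether the control level has a part in the interferon difference was not tested. The controls were uneven: the list mean was 1.71, 1.88, 3.39 and 1.84 on 0 mM replicates 1 to 4 and 3.62, 3.37 and 3.34 on the 2.1 mM arrays. Replicate 3 of 0 mM lay at the treated level. Ifit1, an antiviral RNA-binding protein, read -0.68, -0.64, 2.81 and -0.58 and 4.08, 3.80 and 3.79 (3.66, adjusted p = 0.0521), and Rsad2, viperin, read 1.14, 2.26, 4.30 and 2.24 and 6.38, 6.14 and 6.23 (3.77, adjusted p = 0.0212, up to 0.0715 with 1 array left out). Without 0 mM replicate 3 6 members rose, and in a fit of the 7 arrays alone 9 rose and 1 fell. The factor Irf7 stood apart from the list at -0.85 (adjusted p = 0.144). Cxcl11, an interferon-induced chemokine outside the list, was the only gene called lower in the spike-level fit, with 1.68, 1.14, 1.58 and 1.12 at 0 mM and 0.14, 0.20 and 0.043 at 2.1 mM (-1.95, adjusted p = 0.0392).

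Genes of lipid handling split. Fabp4, a fatty acid binding protein of adipocytes and macrophages, read -0.38, -1.31, -0.74 and -1.26 at 0 mM and 5.30, 4.99 and 4.93 at 2.1 mM, a rise with all 4 probe sets called higher (log2 5.99, SE 1.32, adjusted p = 0.0054). As for Csf3 the controls were dim and no fold is given. The related Fabp5 rose by 1.63 (adjusted p up to 0.0563 without 2.1 mM replicate 2) and the scavenger receptor Cd36 by 2.66, with 1.68, -0.12, -0.17 and -0.22 at 0 mM. Lipoprotein lipase, Lpl, a bright gene, read 7.22, 7.35, 6.61 and 7.22 and 5.72, 5.60 and 5.61 (fell by 1.46, SE 0.24, adjusted p = 0.000895), and the desaturases Scd1 and Scd2 fell by 0.92 and 0.87 (adjusted p = 0.00672 and 0.0139, for Scd2 adjusted p up to 0.0578 without 2.1 mM replicate 3). In cholesterol synthesis 4 of 17 genes fell, among them Mvd (-1.31, adjusted p = 0.00225), Dhcr7 (-1.31, adjusted p = 0.00485) and the regulator Srebf2 (-0.80, adjusted p = 0.01, up to 0.0526 with 1 array left out), and 1 rose, Sc5d, whose probe sets disagreed. Without 2.1 mM replicate 3, 2 of the falls were called. The list median was 0.029, and it was -0.13 after quantile normalization, 0.18 after scaling and -0.36 in the spike-level fit.

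Several of the largest rises, those of Procr, Afp and Slc17a6, belong to genes not typical of macrophages. Procr, the endothelial protein C receptor, read 2.71, 2.10, 1.10 and 1.95 on the 0 mM arrays and 6.69, 6.65 and 6.62 on the 2.1 mM arrays (log2 4.69, SE 0.56, adjusted p = 7.38e-05). The urokinase receptor Plaur had tight controls between 3.11 and 3.29 and rose by 2.48, SE 0.48, adjusted p = 0.00224, and thrombomodulin Thbd rose by 1.69 (adjusted p = 0.0127; adjusted p up to 0.0682 without 2.1 mM replicate 1). Afp, alpha-fetoprotein of fetal liver, read 0.78, -0.47, 0.22 and -0.89 and 4.79, 4.51 and 4.48 (log2 4.68, SE 0.54, adjusted p = 5.32e-05; 3 of 5 probe sets called higher), and Slc17a6, a vesicular glutamate transporter of neurons, read 1.20, -0.67, -0.64 and -0.58 and 3.95, 3.90 and 3.85 (4.07, SE 0.69, adjusted p = 0.000987). They stood alone among liver and neuron markers: 2 of 11 were called, and albumin, Alb, was not (-0.074, adjusted p = 0.686). Pdpn, podoplanin, rose by 3.78, SE 0.94, adjusted p = 0.011. S100a8, a calcium-binding protein of neutrophils and activated macrophages, rose by 3.70, SE 0.93, adjusted p = 0.0119, and its partner S100a9 stayed dim at -1.15 to -0.69 on all 7 arrays. S100a8 was the 1 call among 10 neutrophil markers.

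The promoter of Procr is shown because it holds the same TGACNNNGC match as Me1, again with the AP-1 letters TGACTCA inside it, 154 bases before the start (RefSeq, GRCm38.p6).
Procr, chr2:155750967-155751266, plus strand: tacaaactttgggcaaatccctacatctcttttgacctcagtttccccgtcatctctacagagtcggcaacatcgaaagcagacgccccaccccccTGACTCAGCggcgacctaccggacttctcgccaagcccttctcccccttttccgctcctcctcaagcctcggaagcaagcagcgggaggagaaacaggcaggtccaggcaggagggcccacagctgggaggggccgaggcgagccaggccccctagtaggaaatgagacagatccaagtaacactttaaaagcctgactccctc

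The largest falls outside the cell cycle were led by Selenbp1, a selenium-binding protein with methanethiol oxidase activity. It read 4.83, 6.12, 1.70 and 6.12 at 0 mM and -0.25, 0.032 and -0.082 at 2.1 mM. Control replicate 3 lay far below the other controls but above all treated arrays (fell by 4.79, SE 1.23, adjusted p = 0.0135, up to 0.0512 with 1 array left out). Lsp1, a leukocyte actin-binding protein, showed the same low replicate, 4.67, 4.96, 2.34 and 4.97, against 0.94, 0.94 and 1.29 (fell by 3.18, SE 0.75, adjusted p = 0.00805). Frmd4b and the oxysterol receptor Gpr183 had even controls: Frmd4b read 4.15, 4.09, 3.98 and 3.97 and 1.28, 1.08 and 0.77 with all 5 probe sets called lower (fell by 3.01, SE 0.56, adjusted p = 0.00192). Gpr183 read 4.82, 4.35, 4.39 and 4.29 and 1.63, 1.48 and 1.38 (fell by 2.97, SE 0.45, adjusted p = 0.000507). The fractalkine receptor Cx3cr1, another chemotactic receptor, fell by 2.24, SE 0.38, adjusted p = 0.000987, while the prostaglandin E receptor Ptger2 rose (2.41, adjusted p = 0.0114, up to 0.0517 with 1 array left out). Cd24a, Rnase4, the lysosomal sulfatase Arsb, Hdac9 and Rassf4 fell by 2.74, 2.65, 2.51, 2.63 and 2.47; for Hdac9 the highest adjusted p with 1 array left out was 0.0709.

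Of 28 autophagy and lysosome genes 6 rose (21.4%) and 3 fell (10.7%), where 7.32% of all genes rose and 8.2% fell. Leaving out 0 mM replicate 3 gave 6 falls, and leaving out replicate 2 or 3 of 2.1 mM gave 1. Gabarapl1, an ATG8 protein of the autophagosome, read 3.30, 4.18, 2.92 and 4.08 and 5.09, 5.10 and 5.09 (1.48, SE 0.32, adjusted p = 0.00451). Atp6v1h, a subunit of the proton pump, rose by 1.27, SE 0.17, adjusted p = 0.000207, and Tfeb, the transcription factor of lysosomal genes, fell by 1.06, SE 0.20, adjusted p = 0.00227. The metallothioneins Mt1 and Mt2, which bind zinc through cysteines, were bright on all arrays and were not called, with differences of 0.31 and 0.20 (adjusted p = 0.138 and 0.336). Hipk1 rose by 1.19 (adjusted p = 0.0132; adjusted p up to 0.0535 without 2.1 mM replicate 2) and Hivep3 fell from 2.97, 2.96, 2.93 and 2.50 to 1.19, 1.11 and 1.16 (fell by 1.68, SE 0.35, adjusted p = 0.00408).

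**Figure D4:**
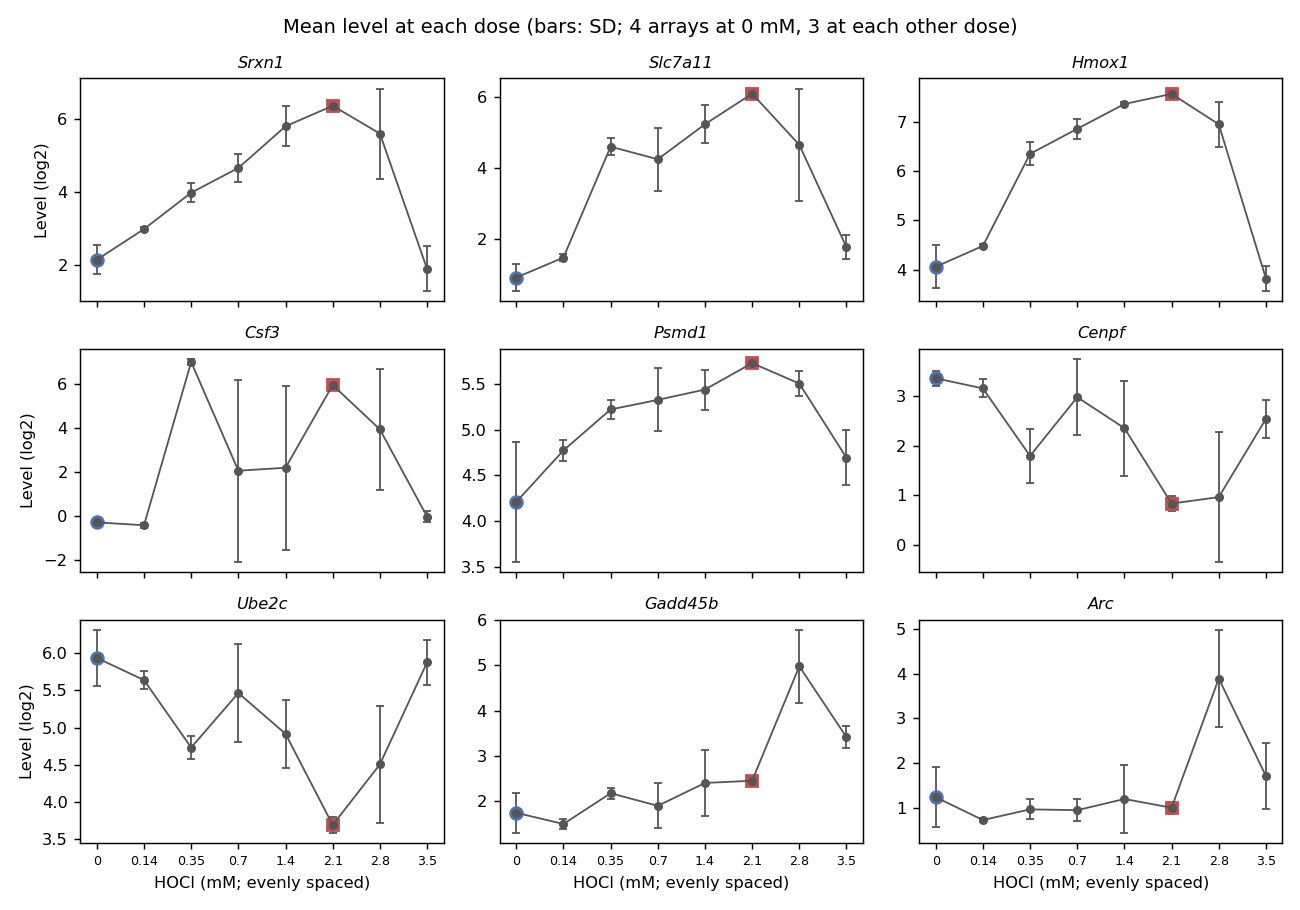
Mean log2 level at each of the 8 doses (evenly spaced on the horizontal axis; bars are SD over 4 arrays at 0 mM and 3 at each other dose) for 9 genes, with 0 mM in blue and 2.1 mM in red. Srxn1, Slc7a11, Hmox1 and Psmd1 have their highest mean at 2.1 mM, Cenpf and Ube2c their lowest, and Gadd45b and Arc their highest at 2.8 mM.

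The neighbouring dose of 1.4 mM was not separated from 2.1 mM by the test. No probe set (0.0%) was called between 2.1 and 1.4 mM by limma at an adjusted p under 0.05, in this fit or under any alternative, and 1343 (2.98%) had an unadjusted p under 0.05. Ube2c read 4.92 ± 0.45 (SD, n = 3) at 1.4 mM and 3.69 ± 0.10 at 2.1 mM, a difference of -1.22 that was not called. The mitosis list had a median of -0.88 between these doses and the proteasome list of 0.20, beside 0.020 over all genes. Csf3 read 2.20 ± 3.73 at 1.4 mM and 5.97 ± 0.023 at 2.1 mM, so the spread at 1.4 mM was nearly as large as the difference. On 1.4 mM replicates 1 to 3 the mitosis list mean was 2.69, 4.13 and 3.06 and the interferon list mean 1.42, 2.08 and 4.42. With such uneven arrays at 1.4 mM, the lack of calls does not show that the doses are alike.

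Between 2.1 and 2.8 mM 11 probe sets of 45037 were called (0.0244%), 8 higher at 2.8 mM (0.0178%) and 3 lower (0.00666%), and 0 to 10 when 1 array was left out. Without 2.1 mM replicate 1, 2 or 3 there were 1, 0 and 2, and without 2.8 mM replicate 3 there were 3. The 2.8 mM arrays were not alike: replicate 1 correlated at 0.977 with replicates 2 and 3, which correlated at 0.996. On 2.8 mM replicates 1 to 3 the mitosis list mean was 3.96, 2.36 and 2.32 and the cytokine list mean 0.88, 2.06 and 1.96. The proteasome list mean was more even, at 5.85, 5.97 and 5.91. Values at 2.8 mM are thus means over unlike arrays. Gadd45b, a stress gene of growth arrest, read 1.74 ± 0.44 at 0 mM (SD, n = 4), 2.45 ± 0.074 at 2.1 mM and 4.98 ± 0.81 at 2.8 mM (SD, n = 3 each), a difference of 2.53 (adjusted p = 0.00836). Arc, an activity-regulated gene, read 1.00 ± 0.13 and 3.89 ± 1.09 at these doses (adjusted p = 0.0191). Glutamine synthetase Glul, Enc1, Zfp703 and Trim69 were higher at 2.8 mM by 1.46, 1.12, 0.74 and 0.66. The 3 probe sets lower at 2.8 mM were 1 of Rbms1, an RNA-binding protein (-1.03, adjusted p = 0.00653), and 2 of Zbtb20, a transcriptional repressor (-0.87 and -1.15, adjusted p = 0.0191 and 0.0456), none of them the brightest of its gene. Between 0 and 2.1 mM Gadd45b, Arc, Glul, Zfp703 and Trim69 were not called and Enc1 fell (-0.57, adjusted p = 0.0222, up to 0.0946 with 1 array left out). Hspa1b read 4.39 ± 0.11 at 2.1 mM and 6.54 ± 0.72 at 2.8 mM, a difference that was not called (adjusted p = 0.427).

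At 3.5 mM, a dose compared here by level only, Hmox1 and Srxn1 had means near those of the control. Hmox1 read 7.57 ± 0.11 at 2.1 mM, 6.95 ± 0.46 at 2.8 mM and 3.82 ± 0.26 at 3.5 mM, against 4.06 ± 0.43 at 0 mM. Srxn1 read 6.36 ± 0.035, 5.60 ± 1.23 and 1.91 ± 0.61 at the same doses, against 2.16 ± 0.40. Ube2c returned from 3.69 ± 0.10 at 2.1 mM to 5.88 ± 0.30 at 3.5 mM, where the control stood at 5.94 ± 0.38, and Hspa1b was at its highest there, 6.76 ± 0.092.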

How the data were processed

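RAW 264.7 RNA from 25 cultures was measured on 1 Affymetrix Mouse Genome 430 2.0 array each (45101 probe sets). The values analysed were deposited by the authors as log2-scale signals summarised by RMA, per the submitters' processing notes, and each array's median lies within 0.0041 of 0; the design text names the Array Assist software, and base 2 was inferred. The number of arrays limits the precision. Samples were grouped by dose from their titles, all columns were mapped (0 unmapped), and no pair of arrays of the same dose was identical.

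The 64 control probe sets were set aside and 45037 were fitted with limma 3.58.1 in R 4.3.3: 1 mean per dose over all 25 arrays, 17 residual and 2.99 prior degrees of freedom, Benjamini-Hochberg adjustment over all probe sets of each comparison, threshold 0.05. A gene took its brightest single-symbol probe set (34945 probe sets, 18193 genes, GEO platform annotation; 932 probe sets with several symbols and 9160 with none were not named). Tested on simulated data for 2.1 against 0 mM with 200 changed probe sets per size, 53.5% of changes of 1.5-fold were called, 82% at 2-fold and 97% at 4-fold, with 29 false calls (5.87% of calls). The simulated noise was independent between arrays and had the same SD at every dose. The real arrays had a median SD of 0.184 at 0 mM and 0.106 at 2.1 mM, and their labelling control level followed the dose. The simulation therefore gives no error rate for the calls reported here.

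The 50 gene lists (963 genes, 878 measured) and the comparison were chosen with earlier results of these data known. The result of 1 list is not reported here. The genes named are the 15 largest rises and 15 largest falls among called genes whose groups did not overlap, the 4 members with the lowest p in every list, a set of key genes whatever their result, and the 5 largest rises and falls of the comparisons with 1.4 and 2.8 mM. Genes called in the spike-level fit, Cxcl11 and Psmd5 among them, and Rbms1 and Zbtb20 were named after their values were seen. Promoters came from RefSeq (GRCm38.p6) by gene symbol, and 14452 of the measured genes had one. Alternatives covered normalization, filtering, probe set choice, arrays left out, weights, the replicate number and the level of the labelling controls.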

Additional observations from a re-analysis of the deposited data

Results flagged for a closer look

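On a control array that stood apart from the other 3 by Dixon's 95% criterion for the gap to the nearest array over the range, 28 of 242 named genes and 7 of 50 list means were found; over all 18193 genes 7.706% were, against about 1 in 20 by chance, and 0 mM replicate 1 accounted for 917 genes (5.04%) and replicate 3 for 334 (1.836%).

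Replicate 1 of 0 mM stood apart for 13 of the named genes. It was low for Hif1a (-1.218), Txn1 (2.372), Nfe2l2 (2.156), Cul3 (3.114), Mtf1 (0.9582), Rpl7 (6.485), Ect2 (1.175), Ccnb2 (0.8832), Irf7 (4.3) and Cenpa (4.538), and it was high for Il1rn (3.121), Slc17a6 (1.196) and Cd36 (1.678). The same array stood apart in the mean of the thioredoxin list (3.483), the superoxide, peroxide and NADPH oxidase list (4.592), the unfolded protein response list (4.226) and the oxidative phosphorylation list (5.383). It is also the array with the highest 3' to 5' difference among the 7 arrays for the Gapdh control probe sets (0.36) and the lowest for those of beta-actin (0.12); the part of either in these values was not tested.

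Replicate 3 of 0 mM stood apart for 14 genes. It was high for Ifit1 (2.811), Dnaja1 (6.285), Kif2c (3.588) and Plk1 (4.397), and low for Cbr3 (1.608), Thbd (-0.8912), Nxn (0.511), Pgls (5.211), Adgre1 (2.059), Aldoc (3.923), Egln1 (2.735), Bhlhe40 (2.322), Rassf4 (2.787) and Lsp1 (2.345). Its list means stood apart for the proteasome (5.51) and for interferon-stimulated genes (3.387). Replicate 4 stood apart for Hivep3 (2.496), and replicate 2 for the mean of the Hipk kinases and Hivep factors (2.85).

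The labelling control probe sets of the 5' end were not among those tested and enter only the spike-level fit. They read 2.212, 2.393 and 1.859 on replicates 1 to 3 of 2.1 mM. All lay above the 0.74 to 1.12 of the 0 mM arrays.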

How the results depend on the processing

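All 6015 probe sets called at 2.1 against 0 mM kept their direction in every alternative that tested them except the spike-level fit, where 98.4% did. The count was 3990 with the replicate number as a replicate block, 2985 with 1 probe set per gene, 39 in the spike-level fit, 16406 with array weights, whose estimate did not converge, and 17428 with gene-by-gene weights, added after seeing the data; it ran from 3120 to 6565 with 1 array left out. Of 186 named calls the block kept 150, quantile normalization 178, scaling 174, the fit of the 7 arrays alone 155 and the spike-level fit 17, and 116 were kept whichever array was left out. Between 2.8 and 2.1 mM the count of 11 became 6 with 1 probe set per gene, 143 with only the compared groups, 17 each with quantile normalization, scaling and the spike level, 1014 and 1816 with the weights, and 0 to 10 with 1 array left out; the block left it at 11. Between 2.1 and 1.4 mM every alternative gave 0. With the probe set of largest variance in place of the brightest, the sign turned for 8 named genes: Dnajc3 (-0.18), Usp14 (-1.17), Ddx21 (-0.57), Cul3 (-0.38), Sc5d (-0.97), Cd53 (-0.23), Qars (0.15) and Ubqln1 (1.41). The cause of these moves was not tested. Detection calls were not used here, so differences of dim genes are not separated from background signal. Residuals of same-numbered arrays at 0 and 2.1 mM correlated at -0.090, -0.029 and 0.087, and those of differently numbered arrays at -0.20 to 0.21. With so few arrays these values cannot show whether same-numbered cultures were handled together. The replicate block treats same-numbered arrays as matched, and it was an alternative only. Since only 0 mM has a replicate 4, the block sets that array aside in the comparison of 2.1 with 0 mM. The median difference over all probe sets was 0.030 both with the block and without 0 mM replicate 4.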

Other observations

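Several lists held calls in both directions or almost none, against 7.32% of all genes called higher and 8.2% lower. Of 32 mitochondrial ribosomal proteins 3 rose and 3 fell, led by Mrpl4 of the large subunit (-0.78, adjusted p = 0.00069), and of 30 oxidative phosphorylation subunits 1 rose and 2 fell. Of 27 splicing genes 1 rose and 1 fell, and of 8 histone genes none was called. Of 30 Zfp genes 4 rose and 1 fell. In the Toll-like receptor list 2 of 17 genes rose, Ly96 and the lipopeptide receptor subunit Tlr6 (0.99, adjusted p = 0.0157, up to 0.0811 with 1 array left out). In the metallothionein and zinc list 1 of 8 rose, the metal-responsive factor Mtf1 (0.70, adjusted p = 0.0369, up to 0.127 with 1 array left out). Of 12 markers of T, B and NK cells 1 rose, the B cell gene Ms4a1 (0.57, adjusted p = 0.0203, up to 0.0899 with 1 array left out), and 1 fell, the T cell gene Cd5 (-1.52, adjusted p = 0.0169, up to 0.0681 with 1 array left out). For Cd5 the arrays of the 2 groups overlapped. The list mean was dim, -0.45 to -0.19 on the 7 arrays, near that of the fibroblast and epithelial markers. When 1 array was left out in turn, the rises among mitochondrial ribosomal proteins ranged from 0 (without 2.1 mM replicate 1) to 8 (without 0 mM replicate 3).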
